A study of Sus scrofa with 20 samples.

Results

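Elastic fibres give walls such as those of arteries, lung and bile ducts their recoil. They form when tropoelastin, secreted by smooth muscle cells, fibroblasts and related mesenchymal cells, is laid on a scaffold of fibrillin microfibrils, held there by fibulins and microfibril-associated proteins, and crosslinked by lysyl oxidases. The 10 genes described here encode that machinery: elastin (ELN), the fibrillins FBN1 and FBN2, the microfibril-associated proteins MFAP2, MFAP4 and MFAP5, the fibulins FBLN1, FBLN2 and FBLN5, and EFEMP1, a short fibulin. They were chosen by gene name, all 10 had a row among the 25764 genes of the table, and all 10 were among the 15576 genes that passed the filter on low values.

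RNA was measured in 20 pig libraries. Porcine biliary tree stem cells (pBTSCs, 5 libraries) came from neonatal gallbladder and its ducts, 1 piglet each, and the other 15 came from liver cells sorted by surface antigen into CD45-/EpCAM+ (4), CD45-/EpCAM- (2), CD45+ (5), CD31+ (2) and CD146+ (2) groups. The labels give no treatment, age or donor for the liver libraries. In the study's account, pBTSC libraries S2, S7 and S11 were from H2B-GFP piglets, which carry a histone H2B and green fluorescent protein fusion in the ACTB gene, and S15 and S20 from wild-type piglets. The methods describe stem cells brought, after immunoselection, into organoids in which they are accompanied by early mesenchymal cells, that is, precursors of endothelial and stellate cells. The libraries are bulk samples, so that fewer cells of a type and less RNA per cell cannot be told apart.

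Transcripts of the sorted surface proteins followed the labels only in part. PTPRC, which encodes CD45, ranged from 424 to 2687 normalized counts in CD45+ libraries and from 450 to 3027 in CD45-/EpCAM+ libraries. EPCAM was at 491 and 1090 in CD45-/EpCAM- libraries and, without overlap, at 1205 to 1779 in CD45-/EpCAM+ libraries, but it was also at 1175 to 2232 in CD45+ libraries. PECAM1, which encodes CD31, was at 20102 and 25291 in CD31+ libraries, above the 4803 and 8413 of CD45-/EpCAM- libraries and within the 12940 to 26682 of CD45+ libraries. MCAM, which encodes CD146, was at 4615 and 5226 in CD146+ libraries, above the 1131 and 1744 of CD45-/EpCAM- libraries and level with the highest CD45-/EpCAM+ library at 4615. The pBTSCs were at 28048 to 36576 for PECAM1 and 4331 to 7656 for MCAM. Hepatocyte genes summed to between 904966 and 2564870 normalized counts in every liver group, the CD45+ and CD31+ groups included, and to between 24772 and 66742 in pBTSCs. The liver groups are named by their labels throughout.

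Depth, estimated from the value of 1 read, was 2.12e+07 to 7.78e+07 reads in 17 libraries and under 2000000 in 3: S13 (CD45-/EpCAM+), S15 (pBTSCs) and S22 (CD146+). A count of 3 reads corresponded to at most 4.28 normalized counts in the deep libraries and to 77.1, 37.7 and 156 in S13, S15 and S22. Differences are given on the scale of log2(normalized count + 1), from a limma fit of all 6 groups with Benjamini-Hochberg adjustment over the 15576 genes. A gene is called where its adjusted p is under 0.05 and its groups differ by more than 1 on the log2 scale. The labels do not say that the libraries of a group came from separate animals, and the p-values then measure only the spread between these libraries. Levels are normalized counts without correction for transcript length and are compared within a gene, not between genes.

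All 10 genes had their highest group mean in pBTSCs, and for 9 of them the lowest pBTSC library exceeded the highest liver library. FBLN5 was the exception. Across all genes tested, 11.9% showed this separation of the 5 pBTSC libraries from the 15 liver libraries. Against the mean of the 5 liver groups, 9 of the 10 genes were called higher and 0 lower, where 16.1% of all genes were called higher. The median log2 fold change was 2.26 for the 10 genes and 0.11 for all genes tested.

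**Figure D1:**
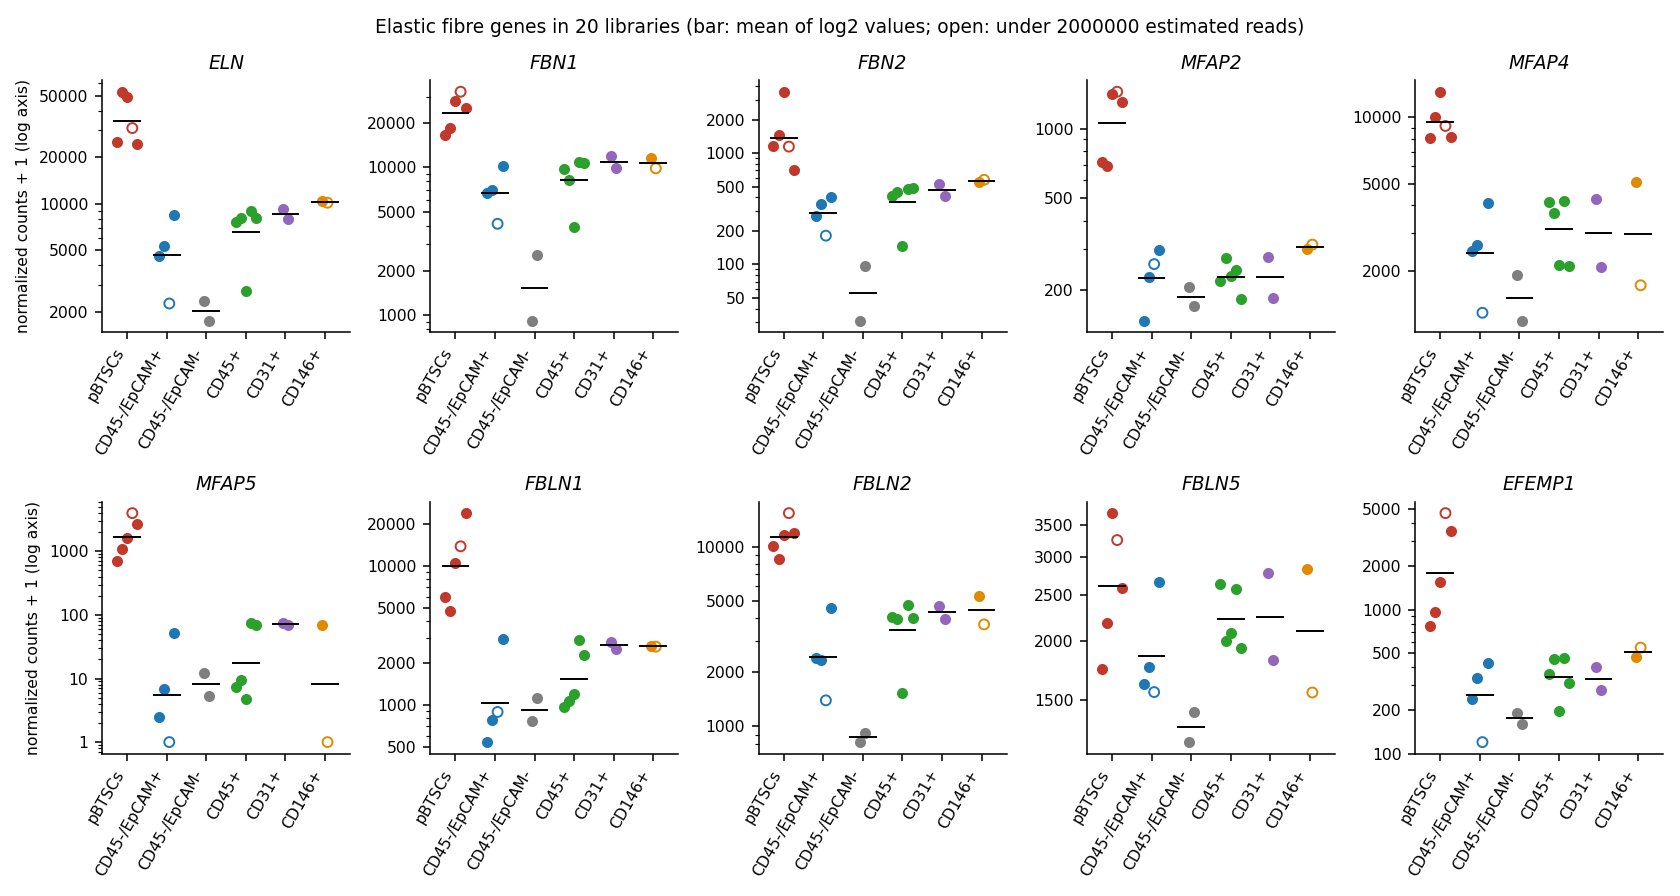
Normalized counts + 1 (log axis, with its own range in each panel) of the 10 elastic fibre genes in each of the 20 libraries, by group. Points are libraries, open points are the 3 libraries under 2000000 estimated reads, and bars are means of the log2 values. For 9 genes the 5 pBTSC libraries lie above all 15 liver libraries, and for FBLN5 the groups overlap.

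ELN, which encodes the tropoelastin that makes up the fibre core, was at 24982, 52970, 49238, 30840 and 24229 normalized counts in pBTSC libraries S2, S7, S11, S15 and S20. In liver it was at 4623, 5308, 2265 and 8417 in CD45-/EpCAM+ libraries S4, S9, S13 and S19, and at 2345 and 1753 in CD45-/EpCAM- libraries S5 and S14. The CD45+ libraries S3, S8, S12, S18 and S23 were at 7590, 8100, 2730, 8958 and 8051. The lowest pBTSC library was thus above the highest liver library, which was CD146+ library S17 at 10411, while the lowest liver values were those of the CD45-/EpCAM- pair and of S13. CD31+ libraries S16 and S21 were at 9203 and 7926, and CD146+ library S22 was at 10150. ELN was called higher in pBTSCs than in each of the 5 liver groups, with log2 fold changes from 1.75 (SE 0.47, limma adjusted p = 0.011) against CD146+ to 4.09 (SE 0.47, adjusted p = 3.81e-06) against CD45-/EpCAM-. Its log2 fold change against the mean of the liver groups was 2.63 (SE 0.30, adjusted p = 1.47e-06).

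The fibrillins form the microfibril on which elastin is deposited. FBN1, the fibrillin of most postnatal tissues, was at 16620, 18435, 27844, 32360 and 25214 normalized counts in the pBTSC libraries, in the same order as above. It was at 6675, 7057, 4138 and 10203 in CD45-/EpCAM+ cells, at 914 and 2563 in CD45-/EpCAM- cells, and from 3956 to 10786 in CD45+ cells. The CD31+ libraries held 11921 and 9830 and the CD146+ libraries 11525 and 9811. No liver library reached the lowest pBTSC value, and the CD45-/EpCAM- pair lay below all 13 other liver libraries. FBN1 was called higher against CD45-/EpCAM+, CD45-/EpCAM- and CD45+, but its log2 fold change against CD31+ was 1.11 (SE 0.43, limma adjusted p = 0.0868) and against CD146+ 1.14 (SE 0.43, adjusted p = 0.0562), which did not pass.

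FBN2, a fibrillin prominent in development, had lower counts and a wider spread. It was at 1165, 1447, 3562, 1143 and 701 in pBTSCs, at 270, 346, 180 and 401 in CD45-/EpCAM+ cells, at 30.1 and 95.9 in CD45-/EpCAM- cells, and between 145 and 574 in the other liver libraries. The highest pBTSC value, in S11, stood well above the other 4, and the groups did not overlap. FBN2 was called in the same 3 comparisons as FBN1, with log2 fold changes from 1.92 (SE 0.42) against CD45+ to 4.64 (SE 0.56) against CD45-/EpCAM-. It did not pass against CD31+ (log2 fold change 1.56, limma adjusted p = 0.0659) or CD146+ (1.28, adjusted p = 0.099).

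The microfibril-associated proteins line the fibrillin scaffold. MFAP5, a microfibril glycoprotein, showed the largest difference of the 10 genes. It was at 705, 1098, 1612, 3986 and 2726 normalized counts in pBTSCs, and no liver library held more than 74.4. CD45-/EpCAM+ libraries held 1.47, 5.94, 0 and 50.9, CD45-/EpCAM- libraries 11.3 and 4.39, and CD45+ libraries 6.31, 8.64, 3.78, 74.4 and 69.5. CD31+ libraries held 72.9 and 67.2, and CD146+ libraries 68.7 and 0. The zeros were in the shallow libraries S13 and S22, where 3 reads are worth 77.1 and 156 normalized counts, and S4 was at or under 3 reads, so that the log2 fold change depends on the pseudocount. It was 6.95 (SE 0.96, limma adjusted p = 1.47e-05) against the mean of the liver groups and 5.87 (SE 0.84) without the 3 shallow libraries.

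MFAP2, which binds both fibrillin and tropoelastin, was at 719, 691, 1412, 1450 and 1311 in pBTSCs and between 146 and 314 in the 15 liver libraries. Its level was the most even of the 10 across the liver, followed by FBLN5. The coefficient of variation over those 15 libraries was 22% for MFAP2 and 26.3% for FBLN5, against 46.9% for ELN and 109% for MFAP5. MFAP2 was called higher against each liver group, with log2 fold changes from 1.78 (SE 0.32) against CD146+ to 2.50 (SE 0.32) against CD45-/EpCAM-. It had the lowest adjusted p of the 10 genes against the mean of the liver groups (log2 fold change 2.19, SE 0.20, limma adjusted p = 1.5e-07). MFAP4, which binds elastin and collagen, was at 8026, 10085, 13095, 9154 and 8128 in pBTSCs and between 1191 and 5083 in liver. MFAP4 was also called in all 5 comparisons, by 1.62 (SE 0.34) to 2.65 (SE 0.45) on the log2 scale.

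The ratio of MFAP5 to MFAP2 within a library, which does not depend on the scaling between libraries, was 0.982 to 2.75 in pBTSCs and 0 to 0.383 in liver. The 2 ranges did not overlap, although both genes were higher in pBTSCs. The ratios of ELN, FBN2 and EFEMP1 to FBN1 were also examined and overlapped between pBTSCs and liver. For ELN the ratio was 0.953 to 2.87 in pBTSCs and 0.547 to 2.56 in liver. For FBN2 it was 0.0278 to 0.128 and 0.0329 to 0.0585, and for EFEMP1 0.0464 to 0.145 and 0.0278 to 0.207.

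Of the 4 fibulin genes, 3 followed elastin and 1 did not. FBLN1, which is incorporated into elastic fibres and basement membranes, was at 5970, 4720, 10491, 13809 and 23936 in pBTSCs. It was at 538, 776, 887 and 2978 in CD45-/EpCAM+ cells, at 761 and 1111 in CD45-/EpCAM- cells, and at 964, 1063, 1204, 2919 and 2288 in CD45+ cells. The CD31+ libraries held 2850 and 2514 and the CD146+ libraries 2657 and 2619, so the lowest pBTSC library exceeded every liver library. FBLN1 was called in all 5 comparisons, with log2 fold changes from 1.89 (SE 0.62, limma adjusted p = 0.0419) against CD31+ to 3.43 (SE 0.62, adjusted p = 0.00025) against CD45-/EpCAM-.

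FBLN2, a fibulin of elastic fibres and basement membranes, was at 10131, 8503, 11672, 15349 and 11843 in pBTSCs and between 817 and 5307 in liver, with the CD45-/EpCAM- pair lowest. It was called in all 5 comparisons, by 1.35 (SE 0.40, limma adjusted p = 0.0185) against CD146+ to 3.70 (SE 0.40, adjusted p = 2.2e-06) against CD45-/EpCAM-. EFEMP1 was at 772, 967, 1558, 4680 and 3533 in pBTSCs and between 119 and 544 in liver. It too was called in all 5, by 1.84 (SE 0.59, adjusted p = 0.028) against CD146+ to 3.36 (SE 0.59, adjusted p = 0.000207) against CD45-/EpCAM-.

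FBLN5, the fibulin that tethers tropoelastin and LOXL1 to the microfibril, was the member not called in any of these comparisons. It was at 1746, 2183, 3706, 3253 and 2585 normalized counts in pBTSCs, at 1620, 1762, 1561 and 2656 in CD45-/EpCAM+ cells, and at 1226 and 1420 in CD45-/EpCAM- cells. CD45+ libraries held 2630, 1999, 2081, 2568 and 1928, CD31+ libraries 2774 and 1820, and CD146+ libraries 2826 and 1558. Every liver group except CD45-/EpCAM- overlapped with the pBTSC range. The log2 fold change was 0.98 (SE 0.29, limma adjusted p = 0.0102) against CD45-/EpCAM-, under the fold threshold, and 0.21 to 0.49 against the other 4 groups, and it turned negative against CD146+ without the 3 shallow libraries (-0.20) and against CD31+ and CD146+ with single libraries left out (to -0.093 and -0.12). Against the mean of the liver groups it was 0.44 (SE 0.18, adjusted p = 0.056). Against CD45-/EpCAM-, FBLN5 was called higher in some other settings. Among them were libraries rescaled to the same total, quantile normalization, and pBTSC library S2 or S7 left out. Its log2 fold change against that group ran from 0.85 to 1.46 over the settings. The ratio of FBLN1 to FBLN5 was 2.16 to 9.26 in pBTSC libraries and 0.332 to 1.68 in liver libraries, without overlap.

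The 5 comparisons share the pBTSC libraries, so their values are given side by side and are not independent of each other. Against CD45-/EpCAM+, 9 of the 10 genes were called higher (14.8% of all genes), with a median log2 fold change of 2.24. Against CD45-/EpCAM-, 9 were called higher (20% of all genes), with a median of 3.57. Against CD45+, 9 were called higher (11% of all genes), with a median of 2.07. In these 3 comparisons the gene not called was FBLN5. Against CD31+, 7 genes were called higher (6.73% of all genes), with a median of 1.79, and against CD146+ 7 (14.5% of all genes), with a median of 1.72. FBN1, FBN2 and FBLN5 were not called in either of the last pair.

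The CD31+ and CD146+ comparisons rested on single libraries. In simulated data with no gene changed, 335 of 15185 genes were called between pBTSCs and CD146+, a group with the shallow library S22. That count is over all genes, and of the members only MFAP5 was at or under 3 reads in S22. ELN was at 10150 there, where 3 reads are worth 156. Its log2 fold change against CD146+ was 1.75 with all libraries, and without S22 that group has S17 alone. Leaving out S12, a CD45+ library, changes the spread estimated over all 6 groups and not the CD31+ values. Without CD31+ library S21, 1 of the 10 genes was called against CD31+, without S16 4 were, and without S12 9. Without CD146+ library S22, the shallowest, 1 gene was called against CD146+, and without all 3 shallow libraries again 1, MFAP2 (log2 fold change 1.70, limma adjusted p = 0.0208). ELN then had a log2 fold change of 1.77 (adjusted p = 0.0785) and MFAP5 of 4.29 (adjusted p = 0.111) against CD146+. In the other 3 comparisons the number of genes called stayed at 9 or 10 with any 1 library left out.

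**Figure D2:**
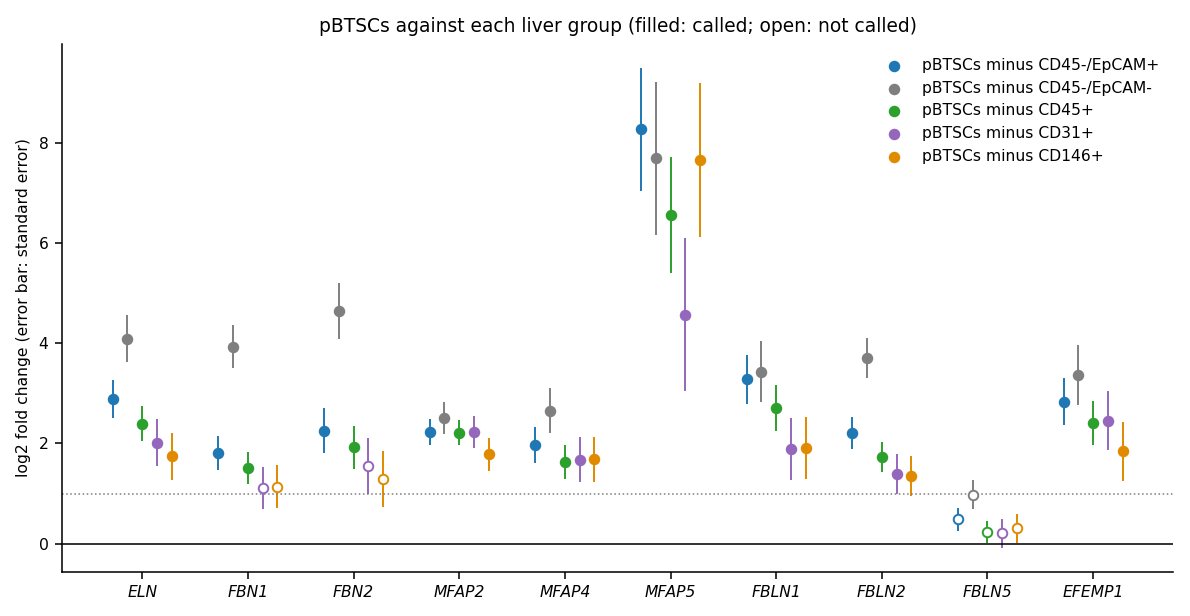
Log2 fold change of each elastic fibre gene, pBTSCs minus each of the 5 liver groups, with its standard error (error bars) from the limma fit. Filled points are called and open points are not, and the dotted line marks a log2 fold change of 1. MFAP5 has the largest values, from 4.57 to 8.27, and FBLN5 lies under 1 in all 5 comparisons.

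The liver groups were then compared with each other. The order of the group means was alike for ELN, FBN1, FBN2, FBLN1 and FBLN2, with CD31+ and CD146+ at the top of the liver groups. Then came CD45+, CD45-/EpCAM+ and, last, CD45-/EpCAM-. Few neighbours in this order differed beyond their spread. Besides the step from pBTSCs to the next group, which was called for 7 genes (ELN, MFAP2, MFAP4, MFAP5, FBLN1, FBLN2 and EFEMP1), the only neighbouring step called was that from CD45-/EpCAM+ down to CD45-/EpCAM-, for FBN1 and FBN2.

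CD45-/EpCAM- cells had the lowest levels of the fibrillins. Against CD45-/EpCAM+ cells the log2 fold change was -2.12 for FBN1 (SE 0.44, limma adjusted p = 0.0241) and -2.39 for FBN2 (SE 0.58, adjusted p = 0.0372), and 2 of the 10 genes were called where 2.80% of all genes were called in either direction. ELN, FBN1, FBN2 and FBLN2 were called higher in CD45+, in CD31+ and in CD146+ cells than in CD45-/EpCAM- cells, 4 of the 10 genes each time, where 7.25%, 13% and 19.9% of all genes were called. The values ran from 1.69 (SE 0.47) for ELN in CD45+ cells to 3.36 (SE 0.67) for FBN2 in CD146+ cells. Both CD45-/EpCAM- libraries lay below the other 13 liver libraries for FBN1, FBN2, FBLN2 and FBLN5, 4 of the 10 genes, as did 8.12% of all genes. These 14 calls became 0 without library S5, 9 without S16, 8 with array weights and 9 with the sample number range described next as a term in the fit. In the remaining 6 pairs of liver groups, 0 of the 10 genes and 0% of all genes were called with limma, while between 33 and 2842 genes and from 0 to 2 of the members had an unadjusted p under 0.05.

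Sample number also went with the levels. The liver libraries numbered S3 to S14 held all CD45-/EpCAM- and no CD31+ or CD146+ cells, and those numbered S16 to S23 held all CD31+ and CD146+ and no CD45-/EpCAM- cells, so that for those groups number and group cannot be told apart. FBLN1 was at 538 to 1204 normalized counts in the 8 libraries up to S14 and at 2288 to 2978 in the 7 from S16 on, and FBN1 at 914 to 9777 and 9811 to 11921. These 2 of the 10 genes did not overlap between the ranges, nor did 7.06% of all genes with all 7 libraries higher. MFAP5 was at 0 to 11.3 in the lower range and at 50.9 to 74.4 in the 6 deep libraries of the upper range, while S22 was at 0. FBLN5 overlapped, at 1226 to 2630 and 1558 to 2826. Within the upper range it was at 2568 to 2826 in S16 to S19 and at 1558 to 1928 in S21 to S23. MFAP4 was at 4103 to 5083 and at 1726 to 2104 in the same libraries. FBLN1 and FBLN2 did not overlap there either, while ELN, FBN1, FBN2, MFAP2, MFAP5 and EFEMP1 did. That split was seen in the data and not tested, and its share over all genes was not counted. The shift between the lower and the upper range was present within the CD45+ label. There MFAP5 was at 3.78 to 8.64 in S3, S8 and S12 and at 69.5 and 74.4 in S23 and S18. The labels do not say what the number stands for.

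**Figure D3:**
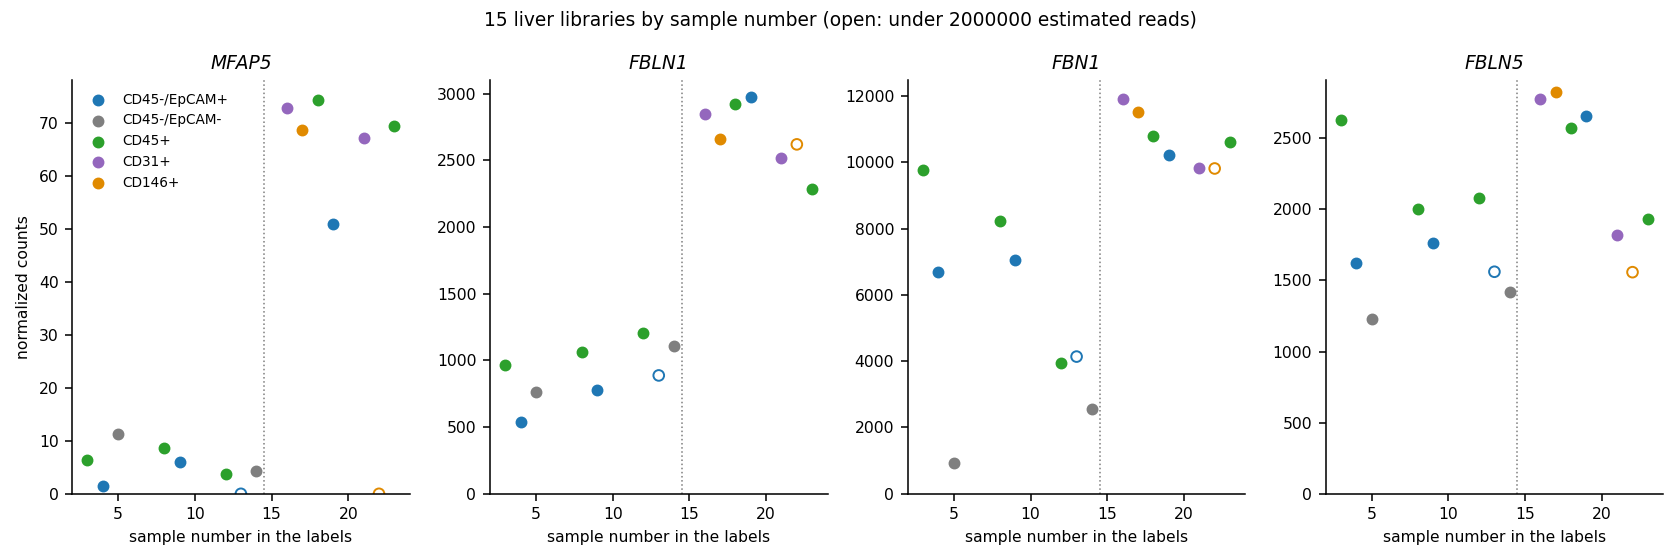
Normalized counts of MFAP5, FBLN1, FBN1 and FBLN5 (vertical axes starting at 0) in the 15 liver libraries against the sample number in the labels, coloured by group. Open points are the 2 liver libraries under 2000000 estimated reads, and the dotted line separates numbers up to 14 from 15 and over. FBLN1 and FBN1 do not overlap between the ranges, and FBLN5 does.

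The pBTSC libraries differed among themselves along the same number ranges, which in them coincide with the H2B-GFP (S2, S7 and S11) and wild-type (S15 and S20) piglets. MFAP5 was at 705 to 1612 in the first and 2726 to 3986 in the second, EFEMP1 at 772 to 1558 and 3533 to 4680, and FBLN1 at 4720 to 10491 and 13809 to 23936. FBN2 was the other way round, at 1165 to 3562 and 701 to 1143, and ELN overlapped. FBLN2 was at 8503 to 11672 and 11843 to 15349. S15 and S20 thus lay above the other 3 libraries for 4 of the 10 genes (19.3% of all genes) and below them for 1 (18% of all genes). In the study's account, RNA integrity was lower in S2, S7 and S11 than in S20, and it was not given for S15. The part of RNA integrity in these differences was not tested. These ranges are a description of 5 libraries, without a test.

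With the number range as a term in the fit, 9 of the 10 genes were again called higher in pBTSCs than in the mean of the liver groups. Of the 15576 genes tested, 2592 were called higher in that fit. The log2 fold change was then 2.66 (SE 0.30) for ELN, 2.84 (SE 0.19) for FBLN1 and 7.33 (SE 0.73) for MFAP5, and FBN1 was called against CD31+ (1.48, limma adjusted p = 0.0146) and CD146+ (1.51, adjusted p = 0.0107). Among the libraries up to S14 alone, 9 genes were called higher against CD45-/EpCAM+ (15.9% of all genes) and 9 against CD45+ (11.1% of all genes). Among those of number 15 and over, where the CD45-/EpCAM+ group had 1 library whose spread was taken from the other groups, 6 were called against CD45-/EpCAM+ (2.94% of all genes), 6 against CD45+ (4.87%), 6 against CD31+ (4.90%) and 7 against CD146+ (6.14%). FBN2 and MFAP4 did not pass there against CD45+, CD31+ or CD146+, with log2 fold changes against CD45+ of 0.90 and 1.54. Of these groups MFAP5 passed only against CD146+, where the shallow library S22 was at 0 and the deep library S17 at 68.7. The log2 fold change of ELN against CD45-/EpCAM+ was 3.40 up to S14 and 1.70 in the upper range, and against CD45+ 2.87 and 1.69. The difference between the ranges was not tested.

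The other genes of the pathway were taken from a list of 27 genes for crosslinking enzymes, latent TGF-beta binding proteins, emilins, further fibrillin and fibulin genes, elastases and TGF-beta ligands, all of which had a row and passed the filter. Against the mean of the liver groups 15 were higher (16.1% of all genes), 5 lower (10.5% of all genes) and 7 not called, with a median log2 fold change of 1.16. The counts higher and lower were 14 and 5 against CD45-/EpCAM+, 16 and 5 against CD45-/EpCAM-, 13 and 5 against CD45+, 12 and 4 against CD31+, and 13 and 4 against CD146+. The shares of all genes called higher in these comparisons are given above, and those called lower were 10.3%, 16.6%, 9.54%, 7.62% and 7.75%, in the same order.

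LOX, LOXL1 and EFEMP2, which act in the crosslinking of elastin, were higher in pBTSCs, while the lysyl oxidase LOXL4 was lower (log2 fold change -1.88, SE 0.34). LOX, the lysyl oxidase that crosslinks elastin and collagen, was at 2813 to 9828 normalized counts in pBTSCs and 434 to 2543 in liver, with a log2 fold change of 2.30 (SE 0.32, limma adjusted p = 1.35e-05). LOXL1, the lysyl oxidase bound by FBLN5, was at 553 to 1654 and 174 to 505 (log2 fold change 1.74, SE 0.27, adjusted p = 4.78e-05). EFEMP2, the fibulin that brings LOX to tropoelastin, was at 1371 to 2721 and 368 to 851 (log2 fold change 1.68, SE 0.18, adjusted p = 8.39e-07). All 3 ranges were free of overlap.

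By the rule of the largest absolute changes, VTN, FBN3 and MMP12 were the others named. VTN, a plasma glycoprotein made by hepatocytes that coats microfibrils, was at 233 to 1201 in pBTSCs and 17348 to 54587 in liver, and its log2 fold change was -6.35 (SE 0.35, limma adjusted p = 4.48e-10), beside the hepatocyte genes given above. FBN3, a fibrillin known from fetal tissue, was at 27.5 to 159 and 0 to 11.1 (log2 fold change 4.12, SE 0.51). MMP12, the macrophage elastase, was at 4.48 to 25.6 and 0 to 2.91 (3.50, SE 0.46), so that most of its values are within a few reads of 0. Besides VTN, the genes lower in pBTSCs were the microfibril protein ADAMTSL2, the elastase CTSS, LOXL4 and the elastin-bound EMILIN1.

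**Figure D4:**
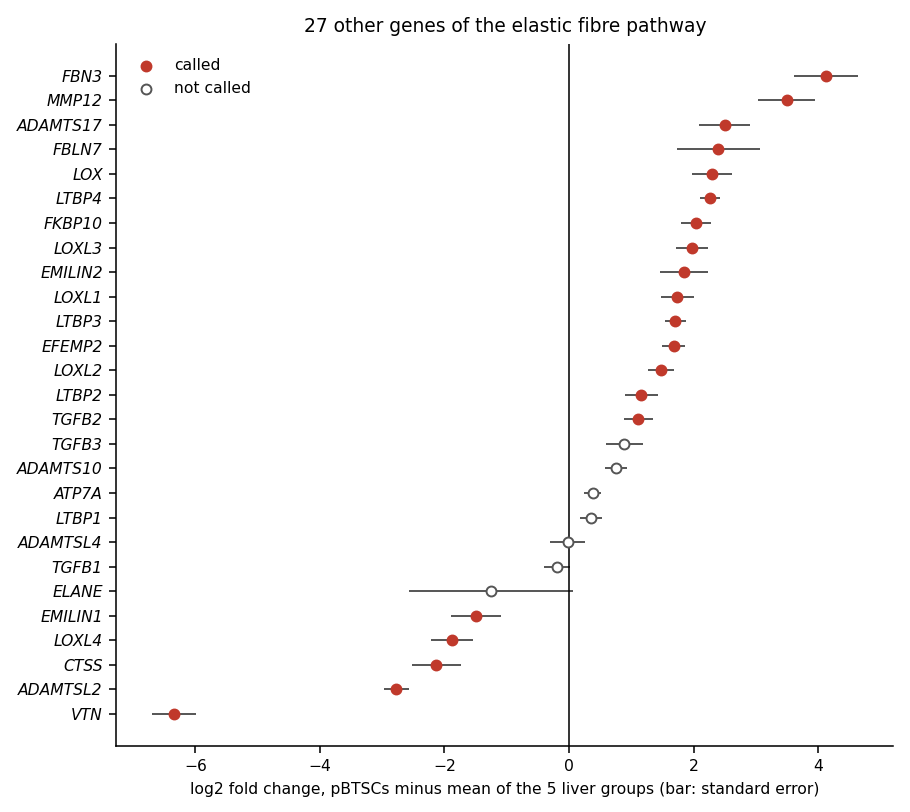
Log2 fold change, pBTSCs minus the mean of the 5 liver groups, of the 27 other pathway genes, ordered by value, with standard errors as bars. Filled points are called and open points are not. LOX, LOXL1 and EFEMP2 lie between 1.68 and 2.30, and VTN lies lowest at -6.35.

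Most fibroblast and smooth muscle markers were also higher in pBTSCs. Of 8 fibroblast markers 7 were higher in pBTSCs than in the mean of the liver groups, led by LUM (log2 fold change 6.54), DPT (3.86) and DCN (3.73), 3 genes of collagen-binding matrix proteins, and THY1 was not called (-0.70). The list summed to between 345200 and 1646170 normalized counts in pBTSCs and between 29825 and 151892 in liver. Of 8 smooth muscle markers 6 had a row and all 6 were higher than in the mean of the liver groups, led by the intermediate filament DES (2.81), CNN1 (1.98) and TAGLN (1.64), both actin-binding, and the list summed to 93639 to 194151 and 14317 to 106230. In the single comparisons 6 of the 6 were called higher against CD45-/EpCAM+ and CD45-/EpCAM-, 4 against CD45+, 4 against CD31+ and 3 against CD146+, and of the 8 fibroblast markers 6 against CD31+ and 7 against each other group. MYH11 and ACTG2, a myosin and an actin of smooth muscle, had no row by those names. None of the markers with a row in either list was at 0 in a pBTSC library.

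Other lists were mixed or lower. Of 8 markers of stellate cells and pericytes 3 were higher and 2 lower, with LRAT, the retinol-storing enzyme of stellate cells, at -6.71, COLEC11 at -4.22 and CSPG4 at 1.51. The stellate and pericyte list summed to 26735 to 37961 in pBTSCs and 6598 to 35188 in liver. Of 3 mesothelial markers tested, WT1 was higher (3.21) and UPK3B lower (-2.74). The mesothelial list summed to between 112 and 266 in pBTSCs and, overlapping, between 52.1 and 154 in liver. These values are low, as 3 reads are worth 156 in S22. Of 6 biliary epithelial markers tested 0 were higher and CDH1 was lower (-1.21). EPCAM was at 884 to 2075 in pBTSCs and KRT19 had no row by that name. All 6 hepatocyte markers were lower, led by APOA2 (-9.59), FGB (-9.49) and ALB (-9.33). Of 5 leukocyte markers CD3E was higher (1.84), while CD14 (-3.80), CD163 (-3.23) and CD68 (-3.18) were lower. Of 6 endothelial markers VWF (2.30) and PECAM1 (1.07) were higher, and STAB2 (-7.19) and LYVE1 (-1.63) lower.

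Within the liver, the fibroblast list summed to 29825 to 79064 in the 8 libraries up to S14 and 68763 to 151892 in the 7 from S16 on, and both CD45-/EpCAM- libraries had low values, 29825 and 44793. The smooth muscle list summed to 14317 to 106230 up to S14 and 44738 to 60250 from S16 on. The 10 elastic fibre genes together summed to 70836 to 124189 in pBTSCs, 29039 to 39200 in the upper liver range and 8421 to 30122 in the lower. CD45+ library S8 had the highest smooth muscle sum in liver, 106230, and an elastic fibre sum of 28224. For pBTSC library S15 these sums were 98647 and 116023. The pBTSC library S7 had the highest smooth muscle sum, 194151, and the highest ELN value, 52970. Elastic fibre sums were 101097 in S7 and 104206 in S20, and fibroblast sums were 355383 and 1646170. The part of fibroblasts and smooth muscle cells in these differences was not tested.

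**Figure D5:**
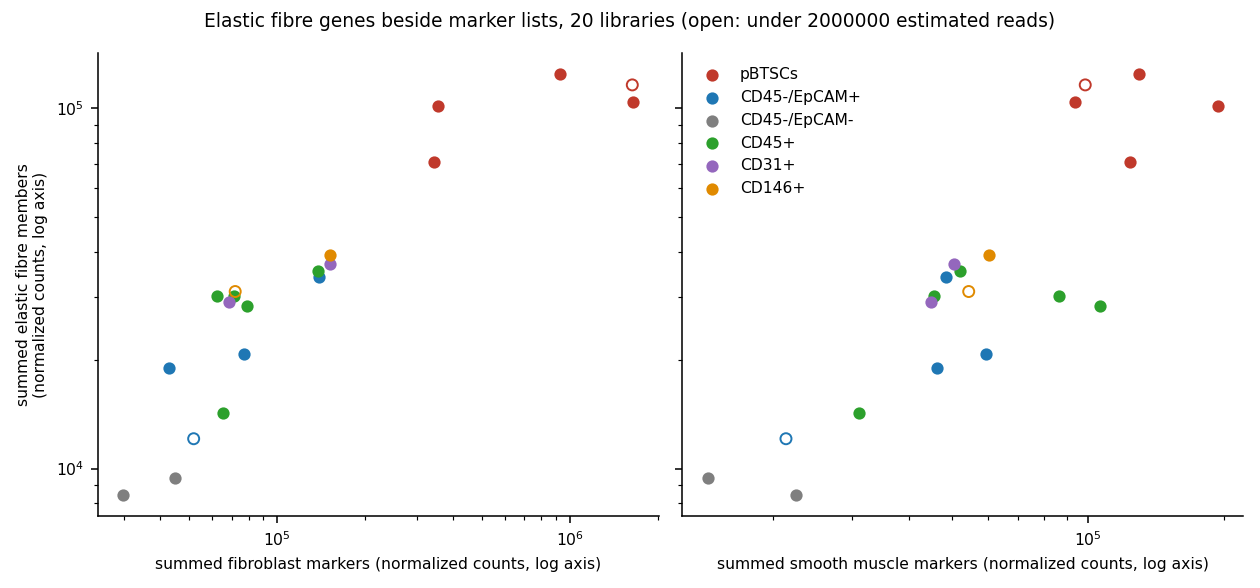
Summed normalized counts of the 10 elastic fibre genes against those of the fibroblast list (left) and the smooth muscle list (right), log axes, 1 point per library, open for libraries under 2000000 estimated reads. The 5 pBTSC libraries hold the highest sums of elastic fibre genes, from 70836 to 124189, and the 2 CD45-/EpCAM- libraries the lowest.

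The genes with the pattern most like each member were sought by Pearson's r of the log2 values over the 17 deep libraries, which share the step from liver to pBTSCs, with r over the 13 deep liver libraries beside it. FBLN2 was closest to SYNPO2 (r = 0.992, and 0.992 in liver) and ELN to MAP1A (0.984 and 0.976). For FBN1 the nearest was PTPRS (0.985 and 0.986), and for FBN2 TBX18 (0.978 and 0.976). MFAP4 was nearest to EPHB3 (0.975 and 0.969), FBLN1 to METTL14 (0.974 and 0.916) and MFAP5 to FGL2 (0.984 and 0.952). MFAP2 was nearest to LUM (0.980), but r fell to 0.811 in liver alone. EFEMP1 was nearest to CCDC80 (0.979 and 0.930), a matrix protein gene. FBLN5 had the lowest best match, CACNB3 (0.903 and 0.940). The next closest pairs of genes were FBXL22 and RIMKLB for ELN, FAM13C and SSFA2 for FBN1, PTPRR and LONRF2 for FBN2, COL1A1 and S1PR2 for MFAP2, ZNF385D and FHL1 for MFAP4, FBXO34 and IGFBP5 for MFAP5, ABI3BP and FGL2 for FBLN1, CHSY3 and ZFPM2 for FBLN5, and COL1A2 and COL1A1 for EFEMP1. Among the 45 pairs of members r had a median of 0.824 (0.511 to 0.961) over the 17 libraries and 0.719 (0.368 to 0.994) over the 13.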

How the data were processed

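Poly(A) RNA of 20 pig libraries was sequenced from Illumina TruSeq Stranded mRNA libraries. Normalized counts per gene, a signal scaled between libraries, were deposited by the authors in 1 table, and the submitters' processing notes name STAR, Salmon and DESeq2 without versions. The genome build is not given in the sources used here, so no coordinates are printed. No sample column was left out.

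The value of 1 read was taken from the most frequent low value of a library. Only 60.3% to 84.3% of low values came out whole with a tolerance of 0.05 reads, and count tests were therefore left out. log2(normalized count + 1) was fitted in R 4.3.3 by limma 3.58.1, with moderated variances that follow the mean level, for genes that reached 10 normalized counts in 2 or more libraries. The step was tested on simulated data. With no gene changed in them, 335 of 15185 genes were called for pBTSCs against CD146+, a group with a shallow library. Python 3.11.15 with pandas 2.3.3 was used for summaries.

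Groups were taken from the cell type label. The piglets of the pBTSC libraries come from the study's sample list. Members and lists were chosen with earlier results of these data known. All members are named in every group. From other lists, the 3 called genes with the largest changes are named, and LOX, LOXL1 and EFEMP2 always. For each member the 3 genes most like it were sought, and for FBLN2 those after the closest are not reported here. The alternatives were other pseudocounts (0.5 and 10), filters, scalings, weights, fits without trend or with only the groups compared, the sample number range as a term, and libraries left out. Fits within each number range were chosen after seeing the data. Libraries of a group were compared with counting noise before averaging, and all pairs differed by more than it.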

Additional observations from a re-analysis of the deposited data

Results flagged for a closer look

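CD45+ library S12 stood apart from the other 4 CD45+ libraries for 4 elastic fibre genes, by the gap from the lowest library to its nearest neighbour as a share of the group's range of log2 values. The share was 0.860 for ELN, 0.731 for FBN1, 0.867 for FBN2 and 0.841 for FBLN2, each above Dixon's 95% critical value for 5 libraries. These were 4 of 30 combinations of gene and group examined, and chance gives about 1 in 20. All 4 fell in the same library, in genes whose levels went together. Over the 13 deep liver libraries r was 0.994 for FBN1 with FBN2 and 0.983 for ELN with FBLN2. The combinations are thus not independent, and 4 of 30 cannot be set against 1 in 20.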

How the results depend on the processing

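The number of elastic fibre genes called was 9 or 10 against CD45-/EpCAM+, CD45-/EpCAM- and CD45+ and 9 against the mean of the liver groups with any 1 library left out. Against CD31+ it was 7, and 1 to 9 with 1 library left out. Against CD146+ it was 7, 1 with array weights, 1 without the 3 shallow libraries and 1 to 8 with 1 library left out. Among the pairs of liver groups it was 14, 8 with array weights, 9 with the sample number range as a term and 0 to 15 with 1 library left out. FBLN5 ranged from -0.093 to 0.51 against CD31+ and from -0.12 to 0.74 against CD146+ with 1 library left out, and was -0.20 against CD146+ without the 3 shallow libraries. The cause was not tested. Rescaling the libraries to the same total moved the median log2 fold change of all genes to between 0.31 and 0.51 in the 5 comparisons of pBTSCs, and genes called higher and lower against the mean of the liver groups from 2504 and 1641 to 3520 and 1254. Over all genes, 2236 were called against CD31+ (3805 with array weights, 1018 to 2511 with 1 library left out) and 5698 against CD45-/EpCAM- (3390 to 6029). Against CD146+ 3462 were called, 1683 with array weights, 1152 to 4587 with 1 library left out, and 1554 without the 3 shallow libraries, where the split of 2255 higher and 1207 lower became 749 and 805. Within sample numbers of 15 and over, 1322 in place of 3905 were called against CD45-/EpCAM+ and 1860 in place of 3202 against CD45+. No paired analysis was possible because the labels give the groups no shared replicate numbers and the liver libraries no donor. Depth limits MFAP5 in S13 and S22.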
